A study of Arabidopsis thaliana with 12 samples.

Results

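The 10 genes described here are those of alternative respiration and of the signal that mitochondria under stress send to the nucleus. They were the alternative oxidases *AOX1A* and *AOX1D*, the alternative NAD(P)H dehydrogenases *NDA1*, *NDA2*, *NDB2* and *NDB4*, the stress-response genes *UPOX* and *OM66*, the dicarboxylate carrier *DIC2* and the transcription factor *ANAC013*. The genes were chosen by name out of the 40215 gene models of the deposited table, with the differences between the groups already known, so those differences are given below as a description and carry no test. Of the 10 genes, 8 reached the minimum for the fit, a TPM (transcripts per 1000000) of 1 or more in at least 3 libraries. The other 2, *AOX1D* and *NDB4*, did not.

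RNA of *Arabidopsis thaliana* seedlings was sequenced on day 4 in 4 groups of 3 libraries. Seedlings of *gun1-102* were sorted into those whose cotyledons were white (*gun1W*), marbled (*gun1M*) and green (*gun1G*), and the fourth group was the wild type Col-0. All 3 mutant groups carry the same T-DNA allele of *GUN1* in the Col-0 ecotype and are set apart by the colour of their cotyledons, so a difference between them is a difference between seedlings of 1 genotype. The seedlings grew on 1% sucrose at 22 °C under 16 h of light, and the labels give the tissue as cotyledon.

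Plant mitochondria can pass electrons from ubiquinone to oxygen through the alternative oxidase, which bypasses the proton-pumping complexes III and IV. Alternative NAD(P)H dehydrogenases on the inner and outer faces of the inner membrane feed electrons into ubiquinone without pumping protons, as a bypass of complex I. When the mitochondrial chain is disturbed, NAC transcription factors held at the endoplasmic reticulum, ANAC013 and ANAC017 among them, are released and enter the nucleus. There they bind the mitochondrial dysfunction motif at target genes, *AOX1A* among them. *AOX1A* is also known to respond to disturbed chloroplasts, and is a common marker gene of organelle signalling.

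All libraries were brought to the same level of the median nuclear gene, and the values below are TPM after that scaling (scaled TPM). The factors were 0.538 to 0.691 in *gun1W*, 0.908 to 1.16 in *gun1M*, 1.16 to 1.27 in *gun1G* and 1.21 to 1.34 in Col-0. Without it, the median log2 difference from Col-0 over all tested gene models was 0.82 for *gun1W*, 0.19 for *gun1M* and 0.03 for *gun1G*. The split of the calls depends on this choice. Higher calls made up 97.6% of all calls in *gun1W*, 78.0% of those in *gun1M* and 72.3% of those in *gun1G* on unscaled TPM. With equal nuclear totals the share was 78.9, 74.2 and 85.8%, and with the median gene as used here 63.7, 58.8 and 67.6%, in the same order of groups. The table holds no read counts, so the depth and the counting error behind a low value are unknown. *GUN1* itself had 25.7 to 39.3 scaled TPM in *gun1W*, 24.5 to 36.1 in *gun1M*, 20.4 to 29.7 in *gun1G* and 44.0 to 46.4 in Col-0, summed over all its transcripts, including any part before the insertion. The summed level of 4 genes of photosynthetic cells was 15567 to 18467 scaled TPM in *gun1W*, 24284 to 34836 in *gun1M*, 30231 to 37728 in *gun1G* and 24299 to 26836 in Col-0. Most of it was *RBCS1A*, the small subunit of Rubisco, and the antenna gene *LHCB1.2* had means of 497 in *gun1W*, 874 in *gun1M*, 1289 in *gun1G* and 1440 in Col-0. The 5 root genes summed to 118 to 389 scaled TPM in *gun1W*, 65.0 to 140 in *gun1M*, 79.4 to 164 in *gun1G* and 277 to 439 in Col-0, so root genes were present in RNA labelled as cotyledon. Nearly all of that sum was *PRP3*, and other genes of the list had another order: *WOX5* had means of 1.88 in *gun1W*, 0.870 in *gun1M*, 0.807 in *gun1G* and 0.0865 in Col-0, and *NRT2.1* was at or near 0 in all groups. The 4 seed genes summed to 2.22 to 21.6 scaled TPM in *gun1W*, 2.06 to 8.94 in *gun1M*, 1.82 to 13.2 in *gun1G* and 2.36 to 7.72 in Col-0. Their part in the results below was not tested, and in RNA of whole tissue fewer cells of a type cannot be told apart from less RNA per cell.

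The sequences in front of the genes are shown first, and the mitochondrial dysfunction motif was present at 4 of the 10 genes. Positions are those of the RefSeq annotation of TAIR10.1, and position 1 is the first annotated base of the gene. The motif was searched as CTTGNNNNNCAAG or CTTGNNNNNCACG on both strands, within 250 bases before to 50 bases after the start. It was present at *AOX1A*, *NDA1*, *NDB2* and *UPOX*, and in 391 of 27443 windows of the same length over all protein-coding genes (1.42%). The 10 genes were chosen by name as genes of the response that this motif is named for. The window was set after matches at *AOX1A* had been seen, so the comparison with all genes is no test. The matches are shown with the fixed bases in capitals and the 5 free bases in lower case.
AOX1A, positions 25 to 37: CTTGctctcCAAG
UPOX, positions -51 to -39: CTTGctctcCAAG
NDB2, positions -79 to -67: CTTGgccacCAAG
NDA1, positions -70 to -58: CTTGcgcatCAAG
AOX1A, positions -3 to 10: CTTGgcgacCACG
The first match of *AOX1A* and the match of *UPOX* were the same 13 bases, although they lie on different sides of the annotated start. No match was present in this window at *ANAC013*, *OM66*, *DIC2*, *AOX1D*, *NDA2* or *NDB4*.

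The short W-box, the core that WRKY factors recognise (TTGACC or TTGACT, both strands), was present in the same window at 7 of the 10 genes and in 32.4% of all windows. The genes without it were *NDA1*, *NDB2* and *ANAC013*. The G-box CACGTG was present at *UPOX* alone of the 10 genes and in 7.68% of all windows. The 250 bases before the start are shown for 3 genes that differ in these matches and in their levels, with every match in capitals. The last 3 capitals of *AOX1A* are the first bases of the motif that crosses its start.
AOX1A, chr3:7906271-7906520, plus strand: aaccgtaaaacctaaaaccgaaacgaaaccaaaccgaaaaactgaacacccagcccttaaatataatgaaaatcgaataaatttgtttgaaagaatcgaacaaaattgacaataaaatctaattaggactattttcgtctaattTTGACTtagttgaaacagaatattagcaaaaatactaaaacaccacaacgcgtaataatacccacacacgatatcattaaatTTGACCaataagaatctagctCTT
UPOX, chr2:9254128-9254377, plus strand: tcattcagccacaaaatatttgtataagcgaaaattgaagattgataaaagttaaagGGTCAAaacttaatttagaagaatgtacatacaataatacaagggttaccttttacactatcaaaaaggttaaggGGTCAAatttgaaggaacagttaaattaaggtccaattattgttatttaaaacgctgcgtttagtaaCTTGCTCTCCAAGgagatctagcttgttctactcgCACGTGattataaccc
DIC2, chr4:12686209-12686458, plus strand: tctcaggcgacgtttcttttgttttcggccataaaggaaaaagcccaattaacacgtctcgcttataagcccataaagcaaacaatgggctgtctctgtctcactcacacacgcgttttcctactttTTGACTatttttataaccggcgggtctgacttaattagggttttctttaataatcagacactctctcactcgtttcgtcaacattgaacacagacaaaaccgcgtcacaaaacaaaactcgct
A match of letters is a description and shows no binding. Matches and levels did not go together throughout. In log2(scaled TPM + 1), *gun1W* was above *gun1G* by 1.82 for *AOX1A*, 2.44 for *UPOX*, 0.40 for *NDA1* and 0.44 for *NDB2*, which all have the motif. For *ANAC013*, which has no match in the window, it was above by 2.03. In windows that began 1000 bases before the start, the mitochondrial dysfunction motif was again present at 4 of the 10 genes, and in 4.62% of all such windows.

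*AOX1A* (AT3G22370), which encodes the main stress-responsive alternative oxidase, lies on chromosome 3 at 7906521 to 7908746, 945 bases after its relative *AOX1B*. It had 18.0, 35.2 and 43.7 scaled TPM in *gun1W*, 10.6, 25.4 and 32.3 in *gun1M*, 11.2, 5.85 and 7.44 in *gun1G*, and 4.82, 4.77 and 4.98 in Col-0. Every mutant library lay above every Col-0 library. The *gun1W* libraries lay above those of *gun1G*, but the lowest *gun1M* library fell among the *gun1G* ones. The mean was 6.65 times that of Col-0 in *gun1W*, 4.69 times in *gun1M* and 1.68 times in *gun1G*. On the scale of log2(scaled TPM + 1), which understates the change of genes with low values, its difference from Col-0 was 2.42 for *gun1W*, 1.89 for *gun1M* and 0.60 for *gun1G* (standard error of the fit 0.39 each).

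*AOX1D* (AT1G32350, chromosome 1) encodes a second alternative oxidase that is known to take over where *AOX1A* is missing. It had 0.0326, 0.0490 and 0.0551 scaled TPM in *gun1W*, 0.0321 in 1 *gun1M* library, and was listed at 0 in the other 2 *gun1M* libraries and in all of *gun1G* and Col-0. *AOX1A* thus made up nearly all of the oxidase transcript of the 2 genes in every library. Among the oxidases outside the 10 genes, *AOX1B* was listed at 0 in every mutant library and *AOX1C* and *AOX2* did not exceed 0.239 scaled TPM.

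**Figure D1:**
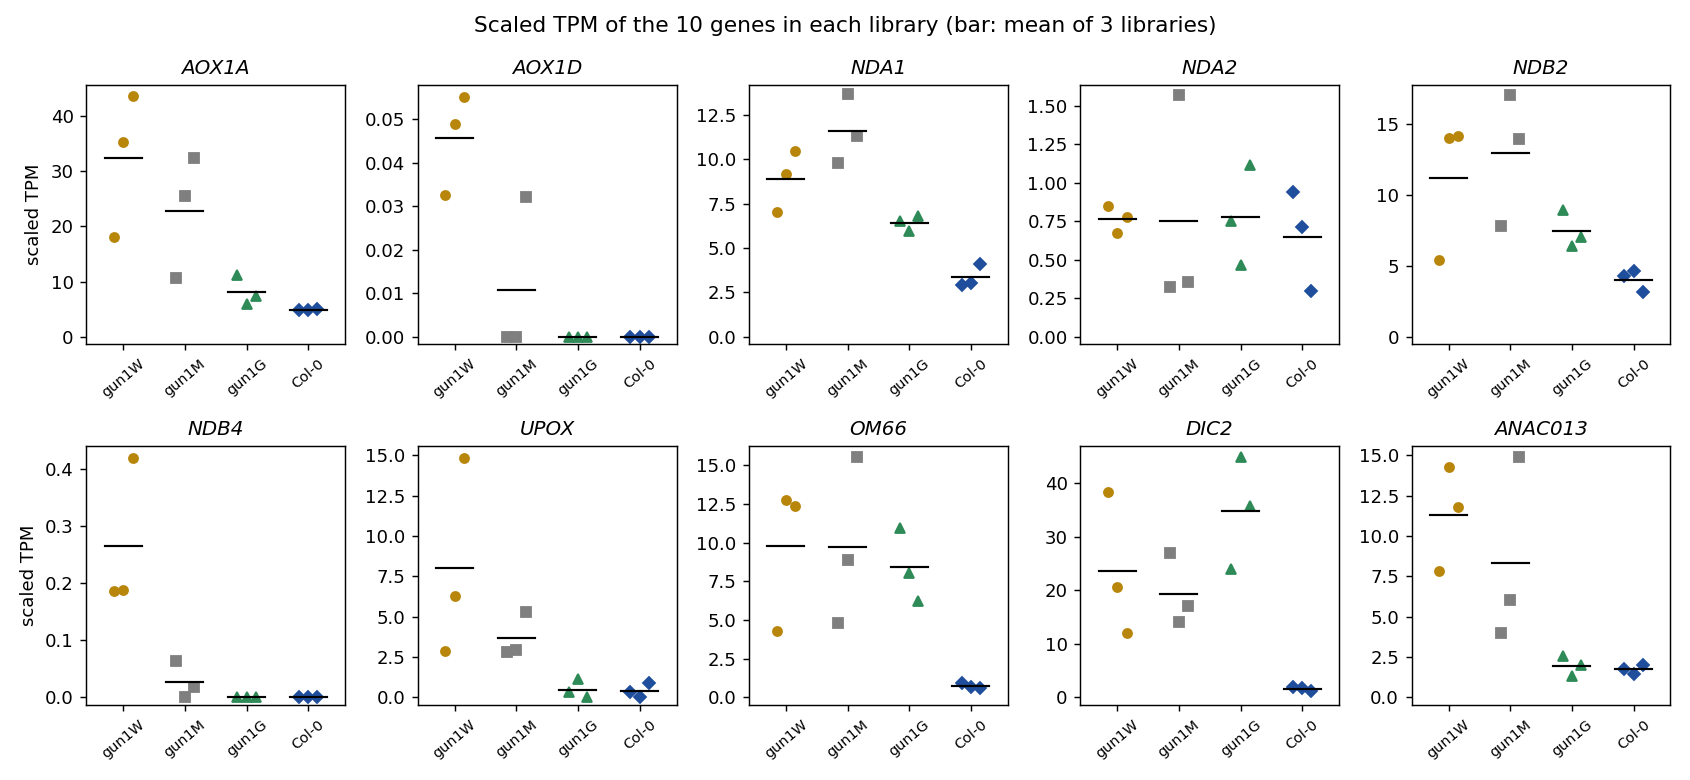
Scaled TPM (vertical axis, 1 scale per gene) of the 10 genes in the 3 libraries of *gun1W*, *gun1M*, *gun1G* and Col-0 (points), with the mean of each group as a bar. *UPOX* and *ANAC013* are high in *gun1W* and *gun1M* and overlap with Col-0 in *gun1G*, *AOX1A* is 1.68 times Col-0 there, and *DIC2* and *OM66* are high in all 3 mutant groups.

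The dehydrogenases differed among themselves. *NDA1* (AT1G07180), an NADH dehydrogenase on the matrix side of the membrane whose transcript is known to respond to light, had 7.04, 9.15 and 10.4 scaled TPM in *gun1W*, 9.78, 13.7 and 11.3 in *gun1M*, 6.53, 5.95 and 6.78 in *gun1G*, and 2.93, 3.05 and 4.11 in Col-0. It had the least spread of the genes that were higher, and each mutant group lay above Col-0, with *gun1G* in between. The difference from Col-0 was 1.17 for *gun1W*, 1.53 for *gun1M* and 0.78 for *gun1G* on the log2 scale (standard error 0.17 each). *NDB2* (AT4G05020), the dehydrogenase on the outer face that is known to be induced together with *AOX1A*, had 5.41, 14.0 and 14.2 scaled TPM in *gun1W*, 7.80, 17.1 and 13.9 in *gun1M*, 8.96, 6.37 and 7.04 in *gun1G*, and 4.26, 4.66 and 3.18 in Col-0. All mutant libraries again lay above Col-0, and the lowest *gun1W* library was below every *gun1G* library. Its difference of 1.18 in *gun1W* stayed a call by a small margin: it was no longer called without replicate 2 (0.98) or replicate 3 (0.97) of *gun1W*, or without replicate 1 (1.22) or replicate 3 (1.06) of Col-0.

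*NDA2* (AT2G29990), the relative of *NDA1* on the matrix side, had means of 0.766 scaled TPM in *gun1W*, 0.749 in *gun1M*, 0.780 in *gun1G* and 0.650 in Col-0, and its libraries overlapped between all groups. *NDB4* (AT2G20800), a further dehydrogenase of the outer face, had 0.187, 0.188 and 0.420 scaled TPM in *gun1W* and 0.0642, 0 and 0.0190 in *gun1M*, and was listed at 0 in *gun1G* and Col-0. In each of the NDA and NDB pairs, 1 gene had most of the transcript.

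*UPOX* (AT2G21640), a small mitochondrial protein gene that oxidative stress induces, had 2.89, 6.30 and 14.8 scaled TPM in *gun1W*, 2.83, 2.92 and 5.32 in *gun1M*, 0.316, 1.15 and 0 in *gun1G*, and 0.307, 0 and 0.919 in Col-0. The *gun1W* and *gun1M* libraries did not overlap with those of *gun1G* or Col-0, and the *gun1W* libraries spread widely among themselves. *gun1G* and Col-0 could not be distinguished, each with 1 library at 0. On the log2 scale *UPOX* differed from Col-0 by 2.50 for *gun1W*, 1.75 for *gun1M* and 0.06 for *gun1G* (standard error 0.46 each). Without Col-0 replicate 2 its difference in *gun1M*, then 1.53, was not called.

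*ANAC013* (AT1G32870), the NAC factor that takes part in the mitochondrial signal, had 7.85, 14.3 and 11.8 scaled TPM in *gun1W*, 4.02, 6.07 and 14.9 in *gun1M*, 2.54, 1.36 and 2.03 in *gun1G*, and 1.76, 1.45 and 2.04 in Col-0. Here too *gun1W* and *gun1M* were separate from *gun1G* and Col-0, which overlapped. The difference from Col-0 was 2.13 in *gun1W*, 1.59 in *gun1M* and 0.10 in *gun1G* (standard error 0.35 each). Its annotated end overlaps that of AT1G32880 on the opposite strand, and a stranded library was prepared.

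*OM66* (AT3G50930), an ATPase of the outer mitochondrial membrane that also responds to salicylic acid, followed another order. It had 4.27, 12.8 and 12.4 scaled TPM in *gun1W*, 4.83, 8.87 and 15.5 in *gun1M*, 10.97, 8.05 and 6.24 in *gun1G*, and 0.928, 0.668 and 0.595 in Col-0. The 3 mutant groups overlapped with each other and all lay above Col-0, at 13.4, 13.3 and 11.5 times its mean in *gun1W*, *gun1M* and *gun1G*. The log2 differences of 2.52, 2.51 and 2.42 were within 1 standard error (0.40) of each other.

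*DIC2* (AT4G24570), a carrier that exchanges malate and other dicarboxylates across the inner membrane, had the largest differences of the 8 fitted genes on the scale of log2(scaled TPM + 1). As a ratio of means to Col-0 it was at 14.3 for *gun1W*, 11.7 for *gun1M* and 21.1 for *gun1G*, and *UPOX* (19.6) was above it in *gun1W* and *OM66* (13.3) in *gun1M*. It had 38.4, 20.7 and 11.99 scaled TPM in *gun1W*, 27.0, 14.1 and 17.1 in *gun1M*, 24.0, 44.9 and 35.8 in *gun1G*, and 2.02, 1.74 and 1.195 in Col-0. All mutant libraries lay above Col-0, and the highest mean, 34.9 ± 10.4 (SD, n = 3), was that of the green seedlings. The difference from Col-0 was 3.08 in *gun1W*, 2.91 in *gun1M* and 3.73 in *gun1G* (standard error 0.37 each). *gun1W* lay 0.64 below *gun1G* and *gun1M* 0.82 below it, and neither was called.

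Over the 8 fitted genes, 7 were called higher in *gun1W* (adjusted p under 0.05 in limma over all gene models and at least 2-fold), where 7.54% of the 18373 tested gene models were called higher. In *gun1M* the same 7 genes, all but *NDA2*, were called, with 7.64% of all gene models. In *gun1G* 2 genes were called, *OM66* and *DIC2*, with 3.09% of all. None was called lower, where the share of all gene models was 4.31% for *gun1W*, 5.34% for *gun1M* and 1.48% for *gun1G*. The median log2 difference of the 8 genes was 2.28 for *gun1W*, 1.67 for *gun1M* and 0.68 for *gun1G*, and that of all tested gene models was within 0.01 of 0 in each. The scaling to the median nuclear gene holds that second median near 0, so it is not an independent background. The 8 genes had passed the minimum partly through the groups in which they are high, and the comparisons share the Col-0 libraries, so these counts describe the choice of genes.

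**Figure D2:**
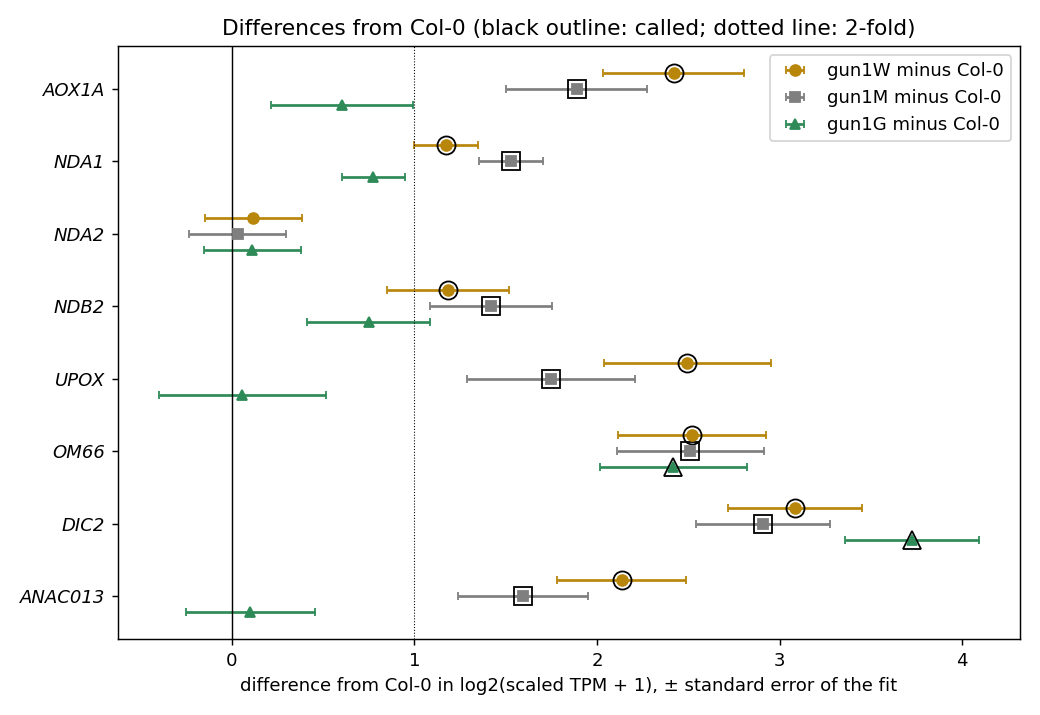
Difference from Col-0 in log2(scaled TPM + 1) (horizontal axis) for the 8 fitted genes in *gun1W*, *gun1M* and *gun1G*, with the standard error of the fit as bars and a black outline where the gene was called. In *gun1G* the outlined points are *OM66* (2.42) and *DIC2* (3.73), whereas *UPOX* and *ANAC013* lie near 0.

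Between the mutant groups, *gun1W* against *gun1G* had 3 calls, *AOX1A* (1.82), *UPOX* (2.44) and *ANAC013* (2.03), where 3.06% of all gene models were called higher and 1.94% lower. *UPOX* and *ANAC013* overlapped with Col-0 in *gun1G*, whereas *AOX1A* lay above it there. *gun1M* against *gun1G* had 1, *ANAC013* (1.49), with 1.35% of all gene models. It was no longer a call when any single Col-0 library, or replicate 2 or 3 of *gun1W*, *gun1M* or *gun1G*, was left out, with differences of 1.02 to 1.61. *AOX1A* (1.28) was called there without *gun1M* replicate 1, at 1.74, and *UPOX* (1.69) without *gun1W* replicate 1 or 3. Between *gun1W* and *gun1M* no gene was called (limma, 0 of 8 at an unadjusted p under 0.05 as well), with 0.0435% of all gene models called higher. In numbers, 8 of all gene models were called higher there and 18 lower. Of all 18373 gene models, 1975 were at an unadjusted p under 0.05 there. On unscaled TPM, *AOX1A*, *UPOX* and *ANAC013* were called higher in *gun1W* than in *gun1M*, so that order depends on the scaling.

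*DIC2* and *AOX1A* were set against each other within each library, as a carrier and an oxidase of the same membrane. The log2 ratio of *DIC2* to *AOX1A*, with 1 added to each, was 1.05, −0.74 and −1.78 in *gun1W*, 1.28, −0.80 and −0.88 in *gun1M*, 1.04, 2.74 and 2.12 in *gun1G*, and −0.94, −1.07 and −1.45 in Col-0. *DIC2* thus exceeded *AOX1A* in all *gun1G* libraries, in 1 library each of *gun1W* and *gun1M*, and in none of Col-0. The mean ratio was −0.49 ± 1.43 in *gun1W*, −0.14 ± 1.22 in *gun1M*, 1.97 ± 0.86 in *gun1G* and −1.15 ± 0.26 in Col-0 (SD, n = 3 each).

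The difference of these means was 3.12 for *gun1G* against Col-0, −2.46 for *gun1W* against *gun1G* and −2.11 for *gun1M* against *gun1G* (standard error 0.85 each, with no test). With 1 added, *gun1W* differed from Col-0 by 0.66, less than 1 standard error, and *gun1M* by 1.02, little more than 1. The value of *gun1W* against Col-0 was −0.11 without *gun1W* replicate 1 and 1.31 without replicate 3, and that of *gun1M* was 0.31 without its replicate 1. Against *AOX1D*, the second oxidase, the mean log2 ratio was 4.42 in *gun1W*, 4.29 in *gun1M*, 5.12 in *gun1G* and 1.40 in Col-0, which is the level of *DIC2* alone because *AOX1D* was near 0. The added 1 raised the ratio to *AOX1A* in Col-0, where *DIC2* was low. With nothing added, that ratio was −1.25, −1.45 and −2.06 in Col-0 and 1.09, −0.77 and −1.86 in *gun1W*. It was 1.35, −0.85 and −0.92 in *gun1M*, so both groups differed more from Col-0 than with 1 added. The lowest *gun1W* library still lay among those of Col-0.

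**Figure D3:**
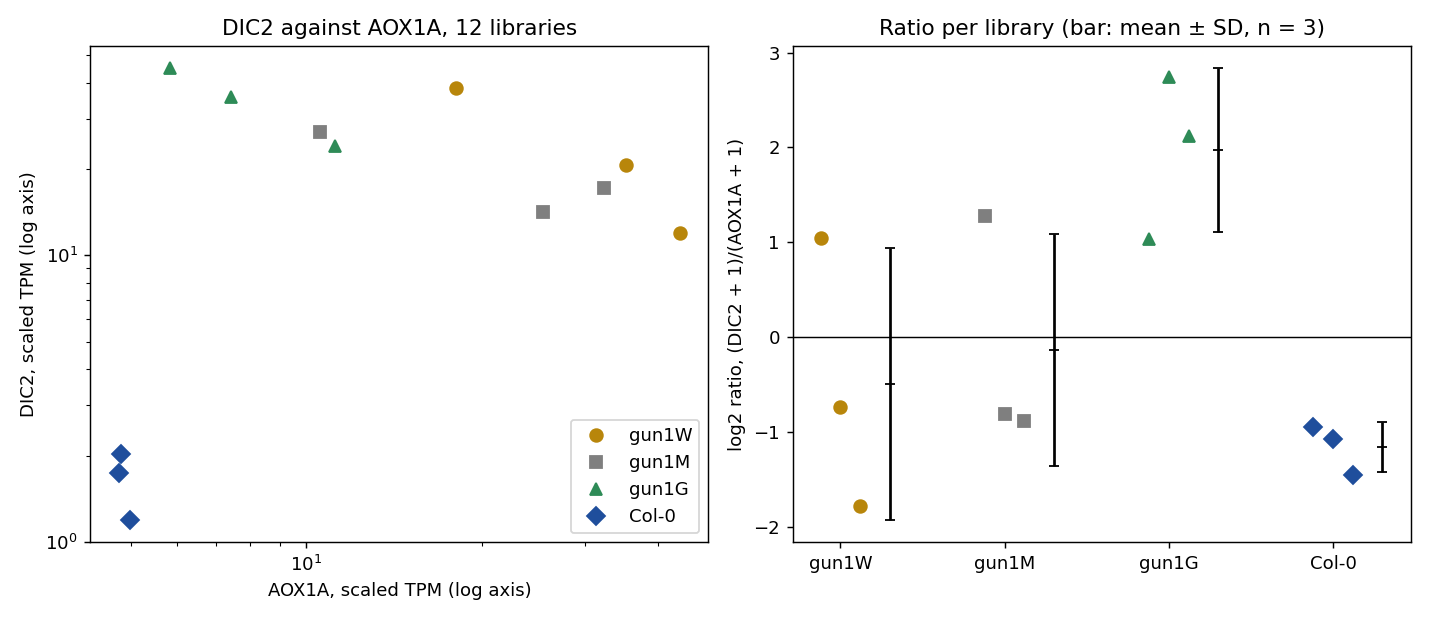
Left, scaled TPM of *DIC2* (vertical) against *AOX1A* (horizontal) in the 12 libraries, both axes logarithmic. Right, log2 ratio of *DIC2* to *AOX1A* per library, with the mean and SD of each group (n = 3). The *gun1G* libraries have a high *DIC2* with a low *AOX1A*, and in each mutant group the library with the lowest *AOX1A* has the highest *DIC2*.

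Within the mutant groups the libraries also differed. The library with the lowest *AOX1A* had the highest *DIC2* in *gun1W* (18.0 and 38.4 scaled TPM), in *gun1M* (10.6 and 27.0) and in *gun1G* (5.85 and 44.9). The same *gun1W* and *gun1M* libraries had the lowest *ANAC013*, *OM66*, *NDB2* and *UPOX* of their group. Both are replicate 1, and the deviations of these 2 libraries from their groups correlated at 0.31. They may thus not be separate observations of the pattern, and a shared origin was not tested. Library make-up differed as well: the non-coding RNA gene AT3G06365 took 19.5, 15.1 and 4.02% of all TPM in *gun1W*, 1.16, 0.745 and 10.5% in *gun1M*, 0.219, 1.34 and 4.70% in *gun1G*, and 5.71, 8.46 and 8.42% in Col-0. The *gun1W* library with the lowest *AOX1A* had the highest *CRA1*, a seed gene, with 7.98 scaled TPM against 2.13 and 0.594 in the other *gun1W* libraries. The same held in *gun1G*, with 4.95 against 1.38 and 0.954. It did not hold in *gun1M*, where that library had 2.09 against 2.77 and 0.810. In Col-0 the library with the highest *DIC2* had 4.63 against 1.11 and 0.996. The part of seed genes in the result was not tested. In *gun1W* the library with the lowest *AOX1A* had the largest share of AT3G06365, while in *gun1M* the library with the highest *AOX1A* did. With this share in the fit, the number of calls over the 8 genes stayed the same in each comparison with Col-0.

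Over the 12 libraries, *AOX1A* correlated with *ANAC013* at r = 0.957, with *UPOX* at 0.888, with *NDB2* at 0.877, with *NDA1* at 0.842 and with *OM66* at 0.781 (Pearson, log2 scale). With *DIC2* it was 0.405. *DIC2* in turn was closest to *OM66*, at 0.768. These points share their libraries and groups, so the values describe the pattern over the 4 groups and are no test. Over 17674 nuclear gene models, the 5 most like *AOX1A* among those with a mean of at least 5 unscaled TPM in their highest group were AT1G29025 (0.989), the glycosyltransferase gene *UGT73C1* (0.985), AT1G30070 (0.982), *AO*, which encodes the L-aspartate oxidase of NAD synthesis (0.981), and *TBL37* (0.973). Among all 17674 models, without that minimum, *ANAC013* was in place 37. Those most like *DIC2* were AT2G30020 (0.974), *AFP1*, an ABI5-binding protein gene (0.966), the protein phosphatase gene *PP2CA* (0.963), the ubiquitin ligase gene *RDUF2* (0.955) and AT4G29780 (0.954). *OM66* was in place 379 and *AOX1A* in place 3928 for likeness to *DIC2* among all 17674 models, again without that minimum.

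Transcripts of the 10 genes were compared by their share within the gene, which the choice of genes did not use. The share could be fitted for 2 transcripts of *AOX1A* and 6 of *NDB2*, and none was called in *gun1W*, *gun1M* or *gun1G* against Col-0 or in *gun1W* against *gun1G* (limma). Of those 8, 2 were at an unadjusted p under 0.05 in *gun1W*, 1 in *gun1M*, 2 in *gun1G* and 0 between *gun1W* and *gun1G*. All of these were transcripts of *NDB2*, and shares within 1 gene depend on each other. The number of all transcripts at that unadjusted level is not given here, so these counts have no background beside them. Calls were rare over all 20380 transcripts too, at 0.0540% in *gun1W*, 0.0540% in *gun1M*, 0.0343% in *gun1G* and 0.0245% between *gun1W* and *gun1G*. The main *AOX1A* transcripts were number 2, with 68.1, 58.4 and 37.0% of the gene in *gun1W* and 21.5, 24.9 and 76.5% in Col-0, and number 3, with most of the rest. Libraries of 1 group thus differed more than the groups. *OM66* was listed with transcript 2 alone in the 3 Col-0 libraries, while transcript 1 made up 0, 38.2 and 71.7% of the gene in *gun1W*, 68.5, 85.0 and 37.5% of it in *gun1M* and 92.4, 75.0 and 43.8% of it in *gun1G*. *OM66* was too low in Col-0 for that share to be tested. *UPOX*, *DIC2* and *NDB4* have 1 transcript each in the table.

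The surroundings of these genes were taken from 10 lists with 76 other genes of mitochondrial respiration, transport and signalling, of which 67 could be fitted. The lists too were chosen with earlier results of these data known, and a gene could pass the minimum through groups in which it is high. The counts and p-values of list genes below thus describe these libraries and are no independent support. In *gun1W* 11 of the 67 rose and 2 fell, in *gun1M* 10 rose and 1 fell, and in *gun1G* 2 rose and 1 fell, against Col-0 and by the same rule and fit. Over all gene models 7.54% were called higher and 4.31% lower for *gun1W*, 7.64 and 5.34% for *gun1M*, and 3.09 and 1.48% for *gun1G*, so the counts in *gun1G* were near the background. In *gun1W* against *gun1G* 5 were higher and 0 lower, with 19 of the 67 at an unadjusted p under 0.05, a share like that of all gene models (5201 of 18373). The median log2 difference over the 67 genes was 0.22 in *gun1W*, 0.20 in *gun1M* and 0.17 in *gun1G*. Most genes of the respiratory chain itself did not pass.

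Of 11 genes of complex I, 5 of complex II and 5 of ATP synthase, all encoded in the nucleus, none passed in *gun1W*, *gun1M* or *gun1G* (limma). At an unadjusted p under 0.05, the numbers for the 3 complexes were 0, 1 and 2 for *gun1W*, 2, 3 and 0 for *gun1M*, and 1, 1 and 0 for *gun1G*. Of all 18373 gene models, 7324 were at that level in *gun1W*, 7781 in *gun1M* and 4899 in *gun1G*. Of 15 genes of complex III, cytochrome c and complex IV, 2 rose in *gun1W* and *gun1M*, both 1 copy of a gene pair. At an unadjusted p under 0.05 there were 7 of the 15 in *gun1W*, 6 in *gun1M* and 2 in *gun1G*. *QCR7-2* (AT5G25450), a small subunit of complex III, had 8.90, 25.2 and 25.6 scaled TPM in *gun1W*, 9.60, 19.8 and 25.1 in *gun1M*, 2.66, 1.52 and 2.26 in *gun1G*, and 0, 1.06 and 0.917 in Col-0. It rose by 3.59 in *gun1W* (limma, adjusted p = 0.00017) and was 2.61 higher in *gun1W* than in *gun1G* (adjusted p = 0.0026). Its copy *QCR7-1* differed from Col-0 by 0.03 in *gun1W* (adjusted p = 0.880). *CYTC-2* (AT4G10040), 1 of the genes for cytochrome c, rose by 1.74 in *gun1W* (adjusted p = 0.0031) and 1.79 in *gun1M* (adjusted p = 0.0029), and was at 1.14 in *gun1G* (adjusted p = 0.054), where it was called without replicate 1 or 3 of *gun1W* or replicate 1 or 2 of *gun1M*. *CYTC-1* was at 0.44 in *gun1W* (adjusted p = 0.227).

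Among the carriers, 4 of 10 fitted genes rose in *gun1W*, 3 in *gun1M* and 1 in *gun1G*. *DIC1* (AT2G22500), the closest relative of *DIC2*, had 60.6, 85.0 and 93.1 scaled TPM in *gun1W*, 93.8, 86.7 and 89.6 in *gun1M*, 57.6, 40.05 and 30.2 in *gun1G*, and 4.50, 4.96 and 3.15 in Col-0. It rose by 3.95, 4.14 and 3.04 in *gun1W*, *gun1M* and *gun1G* (limma, adjusted p = 1.8e-06, 2.0e-06 and 6.9e-05). Unlike *DIC2*, it had its highest mean in *gun1M*. It was 0.91 higher in *gun1W* than in *gun1G* (adjusted p = 0.025), below the 2-fold limit, and was called without *gun1W* replicate 1 (1.09) or *gun1G* replicate 1 (1.15). In *gun1M* it was 1.11 higher than in *gun1G* (adjusted p = 0.023), which was a call. Reads of such close relatives can be shared out between them by the quantification. *BOU*, a carrier known from photorespiration, rose by 1.25 in *gun1W* and 1.34 in *gun1M* (adjusted p = 0.0014 and 0.0011). The succinate and fumarate carrier *SFC1* rose by 1.14 in *gun1W* (adjusted p = 0.0029). The carrier gene *AAC3* rose by 1.35 in *gun1W* and 1.38 in *gun1M* (adjusted p = 0.0039 and 0.0037). It was also called against *gun1G*, at 1.27 in *gun1W* and 1.30 in *gun1M* (adjusted p = 0.011 and 0.022).

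The other genes of the mitochondrial dysfunction response had the largest share of calls, 3 of 6 in *gun1W* and *gun1M*. None of the 6 passed in *gun1G* (limma, 0 at an unadjusted p under 0.05, where 4899 of all 18373 gene models were). All 6 were nonetheless above Col-0 there, by 0.15 to 0.67, with standard errors of 0.24 to 0.60. Their median difference in *gun1G* was 0.53, against 0.17 over the 67 genes of the lists. *HSP23.5*, a small heat shock protein of mitochondria, had 11.9, 41.6 and 42.1 scaled TPM in *gun1W*, 6.43, 20.1 and 42.2 in *gun1M*, 0.584, 1.75 and 1.95 in *gun1G*, and 1.21, 0.198 and 0.556 in Col-0. It rose by 4.16 in *gun1W* (adjusted p = 0.00055) and was 3.62 higher there than in *gun1G* (adjusted p = 0.0027), the same order as *UPOX* and *ANAC013*. The sulfotransferase gene *SOT12* rose by 2.34 in *gun1W* and 2.06 in *gun1M* (adjusted p = 0.0015 and 0.0035). It was 1.87 higher in *gun1W* than in *gun1G* (adjusted p = 0.011). *UGT74E2*, which encodes a glucosyltransferase of the auxin indole-3-butyric acid, rose by 2.27 in *gun1W* and 1.78 in *gun1M* (adjusted p = 0.0046 and 0.015), the second being lost without *gun1M* replicate 2 (1.48).

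Of the regulators, *WRKY40* (AT1G80840), a repressor that is known to bind the *AOX1A* promoter, rose by 3.39 in *gun1W*, 3.31 in *gun1M* and 3.07 in *gun1G* (limma, adjusted p = 0.00078, 0.0011 and 0.0058), as *DIC2* and *OM66* were high in all 3 groups. It had 34.7, 15.1 and 13.1 scaled TPM in *gun1W*, 38.6, 8.47 and 17.2 in *gun1M*, 21.0, 20.1 and 7.95 in *gun1G*, and 1.38, 0.434 and 1.04 in Col-0. In *gun1W* and *gun1M* its highest library was the one with the lowest *AOX1A*, replicate 1 in both. In *gun1G* its highest library (21.0) was the one with the highest *AOX1A* (11.2 scaled TPM). A relation between the 2 genes was not tested. *WRKY15*, a regulator of salt and oxidative stress responses, rose by 1.04 in *gun1W* and 1.09 in *gun1M* (adjusted p = 0.021 and 0.017), a call that was lost without Col-0 replicate 3 in both groups (0.82 and 0.87), without *gun1W* replicate 3 (0.95) and without *gun1M* replicate 1 (0.83). *ANAC017*, the NAC factor that acts upstream in the same signal, differed by 0.48 in *gun1W* (adjusted p = 0.014, below the 2-fold limit), 0.28 in *gun1M* (adjusted p = 0.098) and −0.04 in *gun1G* (adjusted p = 0.853).

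Of 5 genes of the route from amino acid breakdown to ubiquinone through the electron transfer flavoprotein, none rose, while 2 fell in *gun1W* and 1 each in *gun1M* and *gun1G*. *ETFA*, *ETFB* and *D2HGDH* did not pass in any of the 3 groups, with differences of −0.46 to −0.0015. *IVD* (AT3G45300), isovaleryl-CoA dehydrogenase of leucine breakdown, had 13.3, 8.50 and 6.78 scaled TPM in *gun1W*, 15.3, 5.76 and 8.12 in *gun1M*, 14.7, 20.5 and 10.2 in *gun1G*, and 62.0, 32.9 and 52.4 in Col-0. It fell by 2.25 in *gun1W*, 2.28 in *gun1M* and 1.64 in *gun1G* (limma, adjusted p = 0.0011, 0.0012 and 0.018). The call in *gun1G* was lost without replicate 1 (−1.45) or replicate 3 (−1.57) of Col-0 and without replicate 1 (−1.65) or replicate 3 (−1.40) of *gun1G*. *ETFQO*, which hands these electrons to ubiquinone, fell by 1.04 in *gun1W* (adjusted p = 0.0097), a call that was lost without Col-0 replicate 1 (−0.88) and without *gun1W* replicate 3 (−0.98).

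**Figure D4:**
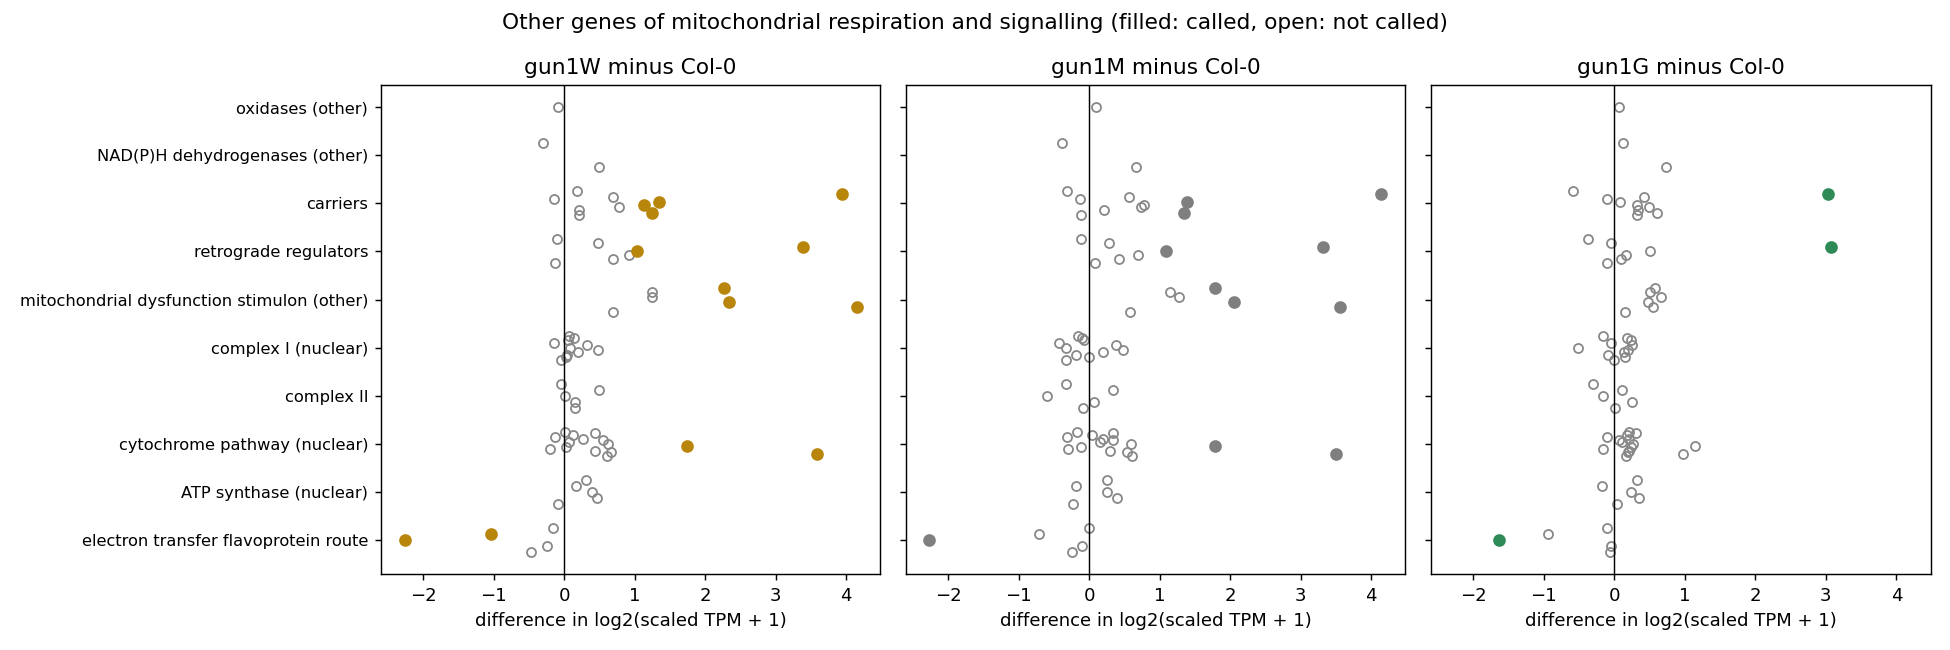
Difference from Col-0 in log2(scaled TPM + 1) (horizontal axis) of the 67 other genes, by list, in *gun1W*, *gun1M* and *gun1G*. Each point is a gene, filled where it was called. The filled points lie in the carriers, the regulators, the dysfunction response, the cytochrome pathway and the electron transfer flavoprotein route, and only 3 are filled in *gun1G*.

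Of the 3 alternative NAD(P)H dehydrogenases outside the 10 genes, 2 could be fitted and neither passed the 2-fold limit. *NDB3* was below the minimum for the fit, with means of 0.324 scaled TPM in *gun1W*, 0.299 in *gun1M*, 0.305 in *gun1G* and 0.0688 in Col-0. *NDC1*, which is found in plastids as well, was at 0.50 in *gun1W*, 0.67 in *gun1M* and 0.73 in *gun1G* (limma, adjusted p = 0.026, 0.0068 and 0.013), so the white group was not the highest. *NDB1*, a dehydrogenase of the outer face, was at −0.30 for *gun1W*, −0.38 for *gun1M* and 0.12 for *gun1G* (adjusted p = 0.318, 0.195 and 0.753). The plastid terminal oxidase *PTOX*, a relative of the alternative oxidases that acts in carotenoid synthesis, was at −0.08 for *gun1W*, 0.10 for *gun1M* and 0.06 for *gun1G* (adjusted p = 0.842, 0.790 and 0.900).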

How the data were processed

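RNA was depleted of rRNA and read as stranded libraries. The authors quantified transcripts with Salmon on the *Arabidopsis* transcriptome AtRTD3 and deposited TPM per transcript, which sums to 1000000 in each library. The submitters' processing notes also name Trimmomatic, FastQC, STAR and TAIR10, and versions are not given in the sources used here. The depth per library is unknown, and precision rests on 3 libraries a group. All 12 columns were matched to their samples by name.

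Transcripts of a gene model were added up, and each library was scaled by 1 factor, the median ratio over 12490 nuclear genes to the mean library. Differences were then estimated with limma 3.58.1 (R 4.3.3) on log2(scaled TPM + 1), all 12 libraries entering 1 model whose variances were moderated along a mean trend. Plastid genes were left out, and the 18373 remaining models that reached 1 TPM in 3 or more libraries were tested, with Benjamini-Hochberg adjustment over all of them. Calls needed an adjusted p under 0.05 and a log2 difference of at least 1. The study ran 3D RNA-Seq on Salmon output, and limma was used here because TPM alone is deposited. Transcript shares were fitted as the log2 ratio of a transcript to the rest of its gene, with 0.1 added, where the gene had a TPM of at least 2 in all libraries and the mean share was between 5 and 95%.

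The genes, the 10 lists and the comparisons were chosen with earlier results of these data known. Named are the 10 genes, at most 3 called genes per list by smallest adjusted p, and the 5 models most like *AOX1A* and *DIC2*. Also named, after their values were seen, are the carrier gene *AAC3* and the list genes given for contrast (*QCR7-1*, *CYTC-1*, *ANAC017*, *NDB1*, *NDB3*, *NDC1*, *ETFA*, *ETFB*, *D2HGDH*, *PTOX* and the low oxidases). The labels do not say that libraries of a group came from separate sowings, so p-values measure the spread between these libraries. Sequences and positions are from RefSeq TAIR10.1, because the deposited table holds no coordinates. The window of 50 bases after the start was set after matches at *AOX1A* had been seen. The fits were tested on simulated data, and were repeated with other added values, filters and scalings, a replicate block, 2 groups alone, the AT3G06365 share as a covariate and each library left out. A second deposited table, of plastid transcripts, was not used. Tables were handled with Python 3.11.15.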

Additional observations from a re-analysis of the deposited data

How the results depend on the processing

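Leaving out each library in turn, the calls over the 10 genes stayed at 6 to 7 in *gun1W* and in *gun1M* and at 2 in *gun1G* against Col-0, and at 3 in *gun1W* against *gun1G*. They went between 0 and 2 in *gun1M* against *gun1G*. Over the other genes of respiration, transport and signalling, the number that rose was 10 to 14 for *gun1W*, 9 to 11 for *gun1M* and 2 to 3 for *gun1G*, and 4 to 8 were higher in *gun1W* than in *gun1G*. In the same runs 1 to 2 fell in *gun1W* and 0 to 2 in *gun1G*.

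With 5 added before the log in place of 1, the calls over the 10 genes were 3 in *gun1M* against Col-0 and 0 in *gun1M* against *gun1G*, and the other genes that rose were 7 in *gun1W* against Col-0 and 3 against *gun1G*, with 1 lower in *gun1W* against Col-0. The larger value shrinks differences of genes with low values. With 0.1 added, 2 of the other genes were lower in *gun1G*. On unscaled TPM, the calls over the 10 genes were 5 in *gun1W* against *gun1G*, 3 in *gun1W* against *gun1M* and 0 in *gun1M* against *gun1G*, and 50 of the other genes rose in *gun1W* against Col-0 and 41 against *gun1G*, with 1 lower in *gun1W*. The median of all genes in *gun1W* was also higher under that scaling, and the cause was not tested. In *gun1M* against *gun1G* the calls were 0 with no filter on low values, 0 with only the 2 groups in the fit and 2 when the AT3G06365 share entered the fit, and the cause was not tested. With that covariate 1 of the other genes was lower in *gun1W* and 0 in *gun1G*, and with equal nuclear totals 1 was lower in *gun1W*. No direction of a called gene was reversed under any alternative run.

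Over all gene models, the calls were 1386 higher and 791 lower for *gun1W*, 1403 and 982 for *gun1M* and 568 and 272 for *gun1G* against Col-0, 562 and 357 in *gun1W* against *gun1G*, 248 and 124 in *gun1M* against *gun1G* and 8 and 18 in *gun1W* against *gun1M*. The lower calls of that last comparison went from 0, with only the 2 groups in the fit, to 25, without *gun1M* replicate 3. The other counts that moved by more than 1.5 times follow. With 5 added, they were 669 and 310, 636 and 374, 200 and 125, 271 and 145, 107 and 32, and 4 higher, for the comparisons in that order. With 0.1 added, 1193 were lower in *gun1W* against Col-0 and 560 against *gun1G*. On unscaled TPM, *gun1W* had 6921 higher and 172 lower against Col-0, 6175 and 79 against *gun1G* and 2381 higher against *gun1M*, and the lower calls were 529 for *gun1M* and 170 for *gun1G* against Col-0 and 45 for *gun1M* against *gun1G*. With equal nuclear totals the lower calls were 510 for *gun1W*, 653 for *gun1M* and 133 for *gun1G*. With the AT3G06365 share, 1229 were lower in *gun1W* and 144 in *gun1G* against Col-0, 628 in *gun1W* and 209 in *gun1M* against *gun1G*. With only the 2 groups in the fit, 83 were higher and 39 lower in *gun1M* against *gun1G*. In *gun1W* against *gun1M* the higher calls were 5 with a minimum of 5 TPM, 3 with the block, 1 with that share and 0 with only the 2 groups. Single libraries mattered most for *gun1G* against Col-0, which had 294 higher and 76 lower with Col-0 replicate 1 left out, 314 and 74 with its own replicate 1 left out, and 121 lower if Col-0 replicate 3 was. Lower calls in *gun1M* were 610 if its replicate 2 was left out. *gun1M* against *gun1G* then had 122 and 62, and 121 and 51 or 121 and 55 if *gun1G* replicate 2 or 3 was left out. Its lower calls were 203 lacking *gun1M* replicate 3 and 200 lacking *gun1G* replicate 1. *gun1W* against *gun1M* ranged over 2 (no *gun1M* replicate 2) to 18 higher (no *gun1M* replicate 3).

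Same-numbered libraries of the groups deviated together with correlations of −0.29 to 0.31 over 18 pairs, of which 4 were above 0.1, so the numbers were not taken as pairs. The highest, 0.31, was that of replicate 1 of *gun1W* and *gun1M*, the libraries with the lowest *AOX1A* of their groups. With the replicate number as a block, the calls over the 10 genes were 7 in *gun1W*, 7 in *gun1M* and 2 in *gun1G* against Col-0, and 11 of the other genes rose in *gun1M* in place of 10. Adding neighbouring gene models to the 10 genes was not run, because no joined model in the table holds 1 of them. The unknown depth leaves the values of *AOX1D*, *NDB4*, *NDA2* and the Col-0 level of *UPOX* without a counting error.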
